A study of Arabidopsis thaliana with 27 samples.

Results

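The genes described here are 5 zinc finger genes and 5 calmodulin-like genes of Arabidopsis thaliana that are used as early reporters of stress. The zinc fingers were ZAT6 (AT5G04340), ZAT7 (AT3G46090), ZAT10 (AT1G27730, also STZ), ZAT11 (AT2G37430) and ZAT12 (AT5G59820, also RHL41). The calmodulin-like genes were CML24 (AT5G37770, also TCH2), TCH3 (AT2G41100), CML37 (AT5G42380), CML38 (AT1G76650) and CML39 (AT1G76640). They were picked by locus, with earlier results of these data known, and these 10 of 32627 loci were measured by 13 of 37118 array features. TCH3 had 3 features, CML38 had 2 and each other gene had 1, and a gene with several features is represented by the one with the highest mean unless stated otherwise. All 10 genes were tested, since no feature was filtered out.

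The arrays were 27 single-color NimbleGen expression arrays, in 9 groups of 3. All plants had the Columbia-0 background. The gox2 plants carry the gox2-1 mutation in GOX2, a peroxisomal glycolate oxidase that releases H2O2 during photorespiration. The 35S::GOX2 plants carry GOX2 behind the constitutive 35S promoter, and WT plants carry neither. Each line was sampled without Cd (control), after 30 min and after 24 h in liquid medium with 100 μM CdCl2, a heavy metal salt that raises H2O2 in plants. The sample labels give 30 min for the short exposure, write the untreated mutant without a gene number and name the material as leaves, while the growth description speaks of seedlings. The study's methods give 1 h for the short exposure, while its list of profiles and a figure legend give 30 min, as the labels do. The sources thus differ on the length of what is called 30 min here. The replicates are described as independent, each a pool of plants, the mutant is a single allele, and the number of 35S::GOX2 insertion lines is not given in the sources used here.

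The C1-2i C2H2 zinc finger proteins of the ZAT family are transcription factors with paired zinc fingers, and most carry an EAR motif through which they repress transcription. Calmodulin-like proteins bind Ca2+ through EF-hands and pass a rise in cytosolic Ca2+ on to their targets. Transcripts of both groups are known to accumulate within minutes of touch, wounding, cold, Ca2+ influx or H2O2 and to decline again, which is why they are used as markers of rapid stress signaling.

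The arrays did not all follow their labels. GOX2 itself was at 9.60 to 10.45 log2 intensity on 9 arrays, which were those labelled 35S::GOX2 control, gox2 Cd 30 min and WT Cd 30 min. It was at 13.63 to 14.35 on the other 18 arrays, those labelled gox2 control and gox2 Cd 24 h among them. The GOX2 transcript thus went against the labels of several groups, and a probe outside the mutated stretch would not test the mutation. Over all features, the closest array to 8 of the 27 arrays carried a different label. The 3 arrays of WT control, WT Cd 30 min, WT Cd 24 h, gox2 Cd 30 min and 35S::GOX2 control each correlated best with their own label. The 12 arrays labelled gox2 control, gox2 Cd 24 h, 35S::GOX2 Cd 30 min and 35S::GOX2 Cd 24 h instead formed 4 sets of 3 that crossed the labels. Within a label whose other arrays resembled each other, 3 arrays stood apart, namely gox2 control replicate 1, 35S::GOX2 Cd 30 min replicate 2 and 35S::GOX2 Cd 24 h replicate 2. Group names below are therefore names of labels, and the member counts that rest on these 4 groups are also given without the 3 arrays that stood apart, here or in the closing section. Shares of all features are given for the model of all 27 arrays. Member counts from other models or tests have no such share beside them. The models of only 15 arrays, or without the 3 arrays that stood apart, rest on choices made from these same data. Such a choice narrows the spread within labels by construction and can enlarge fold changes. A smaller adjusted p from these models is therefore not separate support.

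The mean of the 8 leaf markers was within 0.09 of its average on every array, on the log2 scale. Among them LHCB1.1 was at 8.59 to 9.39, LHCB2.1 at 12.29 to 13.13 and the others at 14.12 or higher. The 12 root markers were measured too, and their mean lay between -1.07 and 0.60 relative to the average of the arrays. All 27 arrays came from 3 slides. WT control, WT Cd 24 h, gox2 Cd 30 min and 35S::GOX2 control shared slide 1, WT Cd 30 min and gox2 Cd 24 h replicates 1 and 2 were on slide 2, and the remaining arrays were on slide 3. The files hold no measure of an array's depth, and precision is limited by having 3 arrays per group.

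ZAT7, a zinc finger known for a role in salt tolerance, had the widest range of the 10 genes, 6.85-fold between its lowest and highest array. Its log2 intensity was 9.45, 10.45 and 10.82 on the gox2 control arrays, 8.54, 8.61 and 8.80 on gox2 Cd 30 min arrays and 10.85, 9.14 and 10.19 on gox2 Cd 24 h arrays. In 35S::GOX2 it was 11.02, 10.71 and 10.75 without Cd, 10.50, 9.62 and 10.59 after 30 min and 9.20, 9.64 and 9.0 after 24 h. In WT it was 8.44, 8.35 and 8.41 without Cd, 8.33, 8.24 and 8.26 after 30 min and 9.33, 9.22 and 9.39 after 24 h. All WT arrays without Cd or at 30 min lay below all arrays of the other 7 groups, and the 3 WT arrays at 24 h were close together above them.

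ZAT10, a salt-inducible repressor, had a range of 4.45-fold. The gox2 arrays had 11.61, 13.21 and 13.07 without Cd, 11.93, 11.74 and 11.77 after 30 min and 12.95, 12.37 and 13.20 after 24 h. The 35S::GOX2 arrays had 13.19, 13.20 and 13.22, then 13.28, 12.41 and 13.36, and 11.84, 12.48 and 11.61 in the same order. The WT arrays had 11.42, 11.58 and 11.54 without Cd, 11.21, 11.58 and 11.23 after 30 min and 12.33, 12.31 and 12.36 after 24 h. The 3 arrays of 35S::GOX2 control were nearly equal (SD 0.02), whereas replicate 1 of gox2 control lay with the low arrays and the other 2 with the high ones.

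ZAT12, which acts in the high light and oxidative stress response, had a narrower range of 2.14-fold. In gox2 it was at 11.53, 11.83 and 11.80 without Cd, 11.39, 11.33 and 11.19 after 30 min and 11.78, 11.53 and 11.80 after 24 h. In 35S::GOX2 it was at 11.79, 11.73 and 11.69 without Cd, 12.06, 11.77 and 11.88 after 30 min and 11.27, 11.40 and 11.20 after 24 h. In WT it was at 11.34, 11.39 and 11.07 without Cd, 10.98, 11.23 and 11.04 after 30 min and 12.08, 11.90 and 11.97 after 24 h. The highest single ZAT12 array was a WT array after 24 h of Cd, which held for CML38 and for no other member, and ZAT12 passed the test in 10 of the 15 comparisons below.

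ZAT6 has been tied to phosphate homeostasis and to Cd tolerance through glutathione synthesis. It was at 14.28, 14.27 and 14.32 on 35S::GOX2 control arrays, against 13.56, 13.51 and 13.45 on WT control arrays. The lowest single array was 35S::GOX2 Cd 24 h replicate 1, at 13.00, and the highest was 35S::GOX2 Cd 30 min replicate 1, at 14.48. ZAT11, known from studies of H2O2-induced cell death and nickel tolerance, was the one zinc finger whose high arrays did not include 35S::GOX2 control. It was at 8.84, 7.64 and 8.47 on 35S::GOX2 Cd 30 min arrays and at 7.53, 7.55 and 7.37 on 35S::GOX2 control arrays, against 7.17, 7.04 and 7.08 on WT control arrays.

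**Figure D1:**
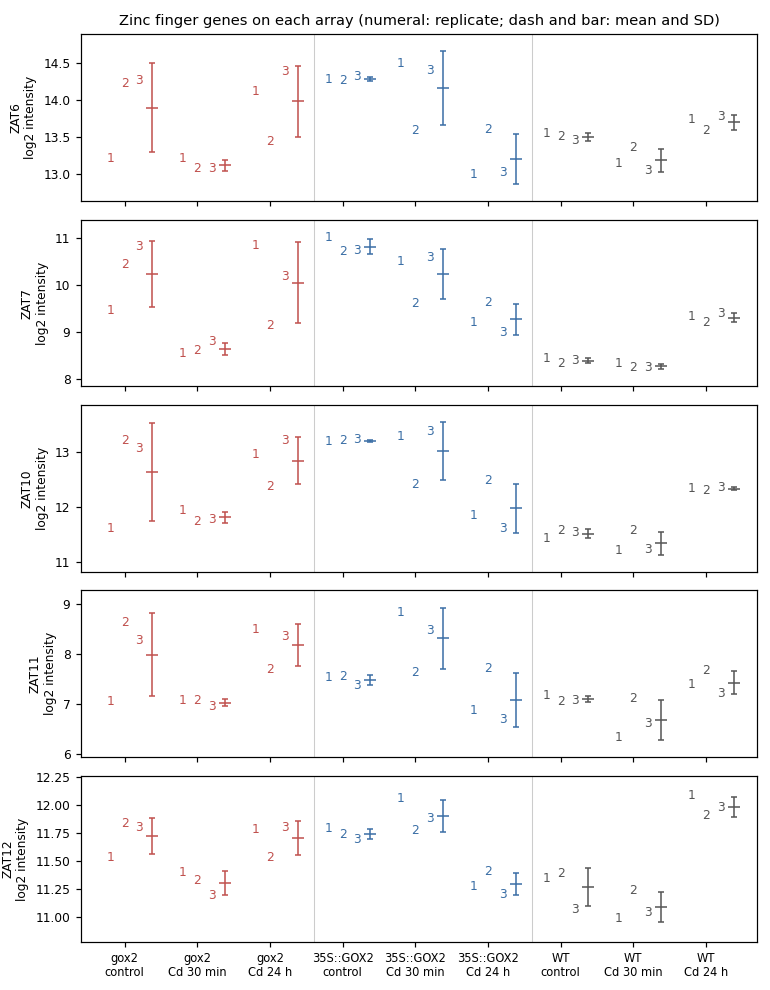
Log2 intensity (y axis) of the 5 zinc finger genes on each of the 27 arrays, by labelled group (x axis); numerals are the replicates and the dash and bar beside them are the mean and SD (n = 3). ZAT10 sits at 13.19 to 13.22 on the 35S::GOX2 control arrays, while the arrays of gox2 control lie apart, at 11.61 on replicate 1 and at 13.21 and 13.07 on the other 2.

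Among the calmodulin-like genes, CML24 and TCH3 belong to the first touch-induced genes found in Arabidopsis. CML24, which takes part in responses to abscisic acid, nitric oxide and day length, was at 13.94, 13.98 and 13.93 on 35S::GOX2 control arrays, against 12.88, 12.81 and 12.83 on WT control arrays. On gox2 control arrays it was at 12.95, 13.81 and 14.00. CML24 varied little in WT, where all 9 arrays lay between 12.61 and 12.91.

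TCH3 binds the protein kinase PINOID, a regulator of auxin transport. Its brightest feature was at 15.48, 15.48 and 15.44 on 35S::GOX2 control arrays, against 15.19, 15.08 and 15.11 on WT control arrays. That feature spanned 1.44-fold over all arrays and the dimmest of the 3 features spanned 3.07-fold, with the same 9 arrays above the widest gap in each of the 3. Size of change therefore depended on the feature, and the order of the arrays at the gap did not.

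CML37, a positive regulator of jasmonate-dependent defence against herbivores, spanned 5.76-fold. It was at 11.78, 11.59 and 11.61 on 35S::GOX2 control arrays, 11.42, 10.41 and 11.27 on 35S::GOX2 Cd 30 min arrays and 9.26, 10.76 and 9.31 on 35S::GOX2 Cd 24 h arrays. In WT it was at 10.11, 9.90 and 9.81 without Cd, 9.28, 9.86 and 9.30 after 30 min and 10.52, 10.25 and 10.52 after 24 h. The 35S::GOX2 control arrays were above every WT array, and the 35S::GOX2 arrays at 24 h were split, with replicate 2 far above the other 2.

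CML38 and CML39 are neighbouring genes on chromosome 1 with no protein-coding gene between them. CML39, which acts in early seedling establishment, was at 8.29, 8.16 and 7.99 on 35S::GOX2 control arrays, against 7.87, 7.31 and 7.51 on WT control arrays. It varied most within labels, with 6.84, 6.38 and 8.43 on gox2 Cd 24 h arrays and an SD of 1.07. CML38, known from wounding and from hypoxia-induced RNA granules, was at 13.95, 13.97 and 13.97 on 35S::GOX2 control arrays, against 14.00, 13.82 and 13.94 on WT control arrays. Its 27 arrays spanned 1.77-fold, and its highest single array and highest group mean were in WT Cd 24 h, at 14.23, 14.14 and 14.14.

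**Figure D2:**
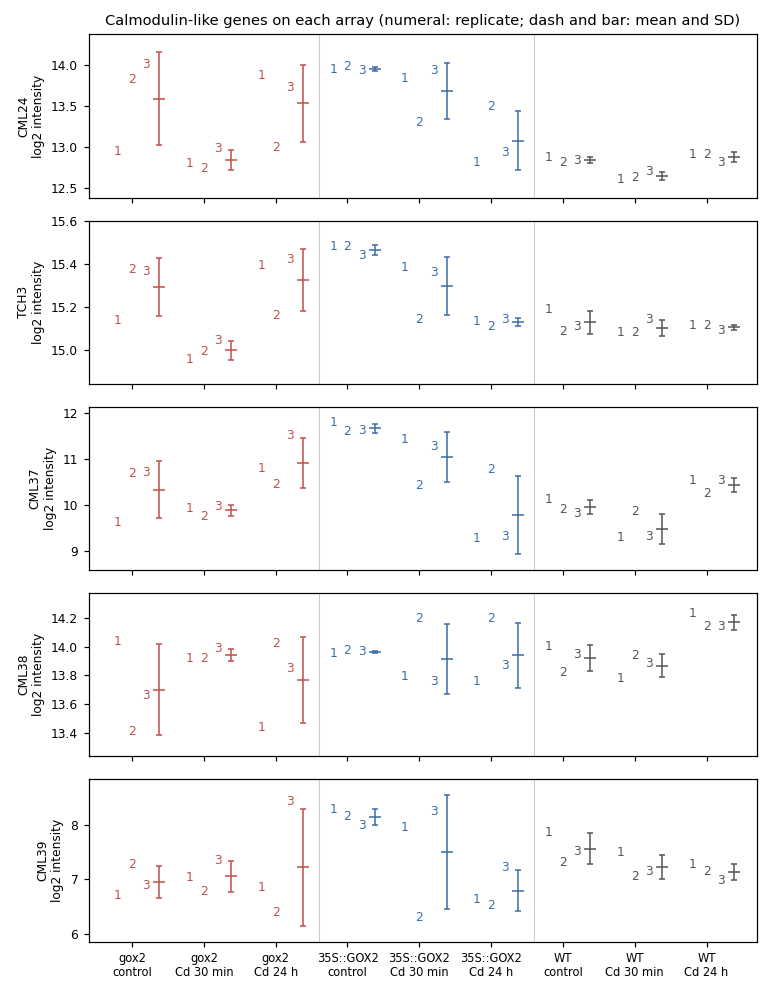
Log2 intensity (y axis) of the 5 calmodulin-like genes on each of the 27 arrays, by labelled group (x axis), with replicate numerals and the mean and SD beside them (n = 3). CML24, TCH3 and CML37 have their highest group means in 35S::GOX2 control, and CML38 shows no such elevation, at 13.95 to 13.97 there and 13.82 to 14.00 on WT control arrays.

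The same 9 arrays stood above the widest gap in the values of ZAT6, ZAT7, ZAT10 and TCH3. These were the 3 arrays of 35S::GOX2 control, replicates 2 and 3 of gox2 control, replicates 1 and 3 of gox2 Cd 24 h and replicates 1 and 3 of 35S::GOX2 Cd 30 min. For ZAT10 these 9 arrays lay between 12.95 and 13.36 and the other 18 between 11.21 and 12.48. CML24 and ZAT12 had these 9 among 11 and 13 arrays above their widest gap. ZAT11 and CML37 had 6 arrays above theirs, all of them among the 9, and CML39 had 7, of which 6 were among the 9. The 9 arrays included 3 with low GOX2 transcript and 6 with high GOX2 transcript.

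Over the 27 arrays the members followed each other to different degrees, as a description of arrays that share slides and labels. The closest pair was ZAT7 and CML24, with Pearson's r of 0.95, followed by ZAT7 and ZAT10 with 0.94 and ZAT6 and CML37 with 0.93. CML38 had an r between -0.42 and 0.02 with each of the other 9 members, and its r with its neighbour CML39 was -0.16. Between groups ordered by mean level, most neighbouring groups overlapped in their arrays, from 5 of 8 steps for ZAT7 to 7 of 8 steps for ZAT6, ZAT10, ZAT11, ZAT12, CML37, CML38 and CML39.

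**Figure D3:**
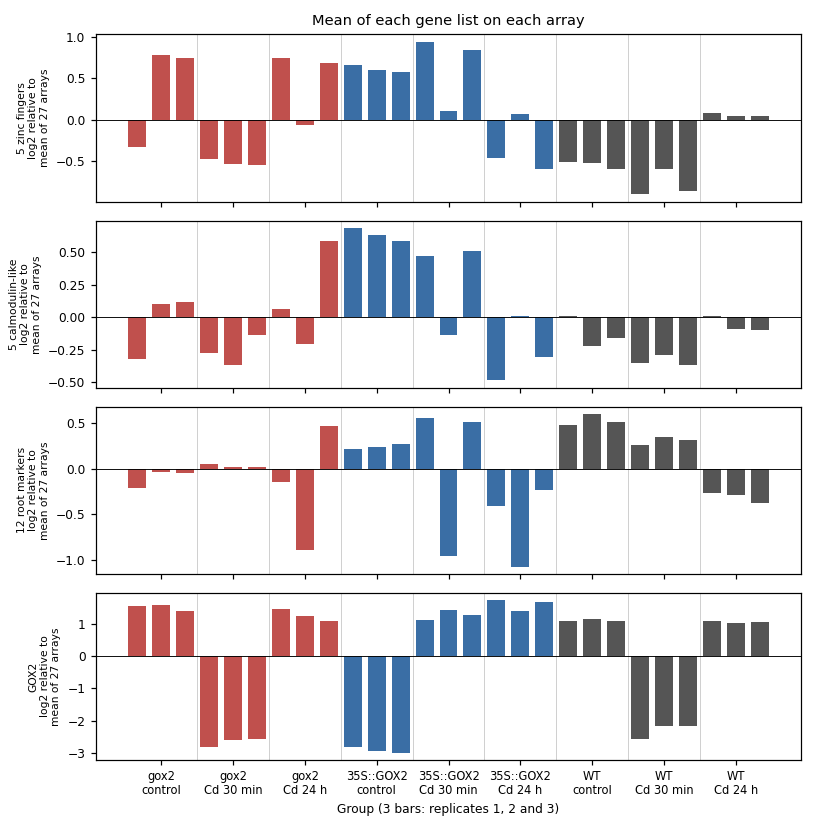
Mean of the 5 zinc fingers, the 5 calmodulin-like genes, 12 root markers and GOX2 on each array (y axis, log2 relative to the gene's mean over the 27 arrays), by labelled group (x axis, 3 bars per group for replicates 1, 2 and 3). The zinc finger mean is 0.78 and 0.75 on gox2 control replicates 2 and 3 and -0.32 on replicate 1, and GOX2 is low on the arrays labelled gox2 Cd 30 min, 35S::GOX2 control and WT Cd 30 min.

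Whether overexpression of GOX2 alters these genes without Cd is asked by 35S::GOX2 control against WT control, 2 groups on slide 1 whose arrays each resembled their own label. Among the members, 4 zinc fingers and 3 calmodulin-like genes rose and none fell. ZAT7 was 5.38-fold higher (log2 fold change 2.43 ± 0.33 SE, n = 3 each, adjusted p = 2.28e-05), CML37 3.30-fold (1.72 ± 0.35, adjusted p = 0.000823) and ZAT10 3.23-fold (1.69 ± 0.32, adjusted p = 0.000369). CML24 was 2.16-fold higher (1.11 ± 0.23), ZAT6 1.72-fold (0.78 ± 0.26), ZAT12 1.39-fold (0.47 ± 0.11) and TCH3 1.27-fold (0.34 ± 0.08), with adjusted p from 0.000972 to 0.0215 in limma's test. ZAT11 (0.39 ± 0.34), CML39 (0.58 ± 0.42) and CML38 (0.04 ± 0.15) did not pass. Here 7 of 10 members rose, where 16.2% of all features rose and 38.3% passed in either direction. The median log2 fold change was 0.68 over the members and -0.07 over all features. The other 2 TCH3 features rose too, by 0.39 (adjusted p = 0.00604) and 1.08 (adjusted p = 0.0114). The count was 6 or 7 when any 1 array was left out and 7 without the 3 arrays that stood apart. GOX2 itself was at 9.60 to 9.79 on these 35S::GOX2 arrays, against 13.69 to 13.77 on the WT arrays, opposite to the overexpression in the label. The root marker mean was 0.22 to 0.28 on the 35S::GOX2 arrays, against 0.49 to 0.60 on the WT arrays, and its part in these differences was not tested.

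The rest of both families was measured beside the members in this comparison. Of 45 other calmodulin-like genes 21 rose and 3 fell, with the largest changes in CML31 (3.0 ± 0.38 on the log2 scale, adjusted p = 1.24e-05), CML40 (2.26 ± 0.53, adjusted p = 0.00245) and CML34 (2.19 ± 0.27, adjusted p = 1.06e-05). All 7 calmodulins rose by smaller amounts, CAM5 by 0.52 and CAM3 by 0.46. Of 11 other C1-2i zinc fingers 2 rose and 3 fell. ZAT8, separated from ZAT7 by 1 protein-coding gene, rose by 2.33 ± 0.26 (adjusted p = 6.3e-06) and AZF1 by 0.74, while ZAT1 fell by 0.88. Among 11 other rapid stress genes 10 rose and none fell, including RRTF1, an ERF factor of ROS signaling, by 3.70, the touch-induced cell wall enzyme gene TCH4 by 1.48 and WRKY46 by 1.46. Of CBF1, CBF2, CBF3 and APX1, the cold factors CBF3 (1.15) and CBF1 (0.99) rose. The 6 CAMTA factors, which bind calmodulin and the promoters of rapid stress genes, had no member past the test. ZAT7 and ZAT8 are related in sequence, and whether their probes cross-hybridized was not tested. Their r over the 27 arrays was 0.73.

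In gox2 control against WT control, which asks the same of the mutant, ZAT7 rose by 1.84 ± 0.33 on the log2 scale (adjusted p = 0.000786), ZAT10 by 1.11 ± 0.32 (adjusted p = 0.0136), CML24 by 0.75 ± 0.23 (adjusted p = 0.0224) and ZAT12 by 0.46 ± 0.11 (adjusted p = 0.00421). These 4 of 10 members stood against 12.1% of all features that rose and 26.9% that passed. ZAT11 had a log2 fold change of 0.89 (adjusted p = 0.0578) and ZAT6 of 0.39 (adjusted p = 0.268). Without the arrays that stood apart, including gox2 control replicate 1, ZAT6, ZAT7, ZAT10, ZAT11, ZAT12, CML24, TCH3 and CML37 rose and CML38 fell by 0.39 (adjusted p = 0.0175). Of the other calmodulin-like genes 12 rose and 5 fell, led by CML40 (2.08), CML41 (1.59) and CML23 (1.31), and ZAT8 rose by 1.62 while ZAT1 fell by 0.46. The calmodulin genes CAM6, CAM5 and CAM2 rose by 0.34, 0.33 and 0.26, as did BAP1, an inhibitor of cell death, by 1.34 and TCH4 by 1.04 among the rapid stress genes. The groups lay on slides 3 and 1, so that slide and group cannot be told apart by a fixed term, and with slide as a random block 1 member passed. The count was 7 without gox2 control replicate 1 and 2 without gox2 control replicate 2 or replicate 3. The mean of 6 seed storage markers, relative to the average of the arrays, was 0.51 to 1.66 on gox2 control arrays, against -0.70 to -0.29 on WT control arrays. The root marker mean was -0.21 to -0.03 on gox2 control arrays, against 0.49 to 0.60 on WT control arrays. The part of either in the result was not tested.

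How WT plants responded to Cd is asked within WT at both times. At 30 min no member passed against WT control, where 15% of all features passed, and none had an unadjusted p under 0.05 in limma. The methods' t-test gave 3 members before and 0 after Benjamini-Hochberg adjustment. The log2 fold changes lay between -0.46 ± 0.35 (CML37) and -0.03 ± 0.08 (TCH3), all of them negative. In a model of only the 15 arrays whose groups each resembled their own label, ZAT6 fell by 0.32 (adjusted p = 0.00978), CML37 by 0.46 (adjusted p = 0.0307) and CML24 by 0.19 (adjusted p = 0.0334). Of the other calmodulin-like genes 6 rose and 1 fell in this comparison, and those that rose included CML31 (2.08 ± 0.38, adjusted p = 0.0011), CML34 (2.03 ± 0.27, adjusted p = 0.000164) and CML32 (1.2). The calmodulins CAM5, CAM2 and CAM4 rose by 0.43, 0.37 and 0.24, the zinc finger ZAT8 by 1.07 and the cold factor CBF3 by 0.73, while ZAT14 fell by 0.75. None of the 11 other rapid stress genes passed. GOX2 itself was at 10.03 to 10.45 on WT Cd 30 min arrays, against 13.69 to 13.77 on WT control arrays, a log2 fold change of -3.43. The root marker mean was 0.26 to 0.35 on WT Cd 30 min arrays, against 0.49 to 0.60 on WT control arrays, and its part was not tested. The 2 groups lay on different slides, and slide and time cannot be told apart here.

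After 24 h of Cd, against WT control on the same slide, ZAT12 rose by 0.72 ± 0.11 (1.65-fold, adjusted p = 0.0032) and no other member passed, where 1.5% of all features rose and 3.22% passed. ZAT7 had 0.92 ± 0.33 (adjusted p = 0.122) and ZAT10 had 0.82 ± 0.32 (adjusted p = 0.143), although their WT Cd 24 h arrays lay entirely above the WT control arrays. The shared spread of this model includes the 4 groups whose arrays crossed labels. The model of the 15 arrays leaves these groups out, and its smaller spread follows in part from that choice. In the model of the 15 arrays the same log2 fold changes passed for ZAT7 (adjusted p = 8.3e-06) and ZAT10 (adjusted p = 2.62e-05), together with ZAT12 (adjusted p = 0.000119), CML37 (0.49, adjusted p = 0.0272) and CML38 (0.25, adjusted p = 0.00677). With only the 6 arrays of both groups 4 members passed, and the methods' t-test with adjustment gave 3. ZAT8 rose by 1.54 ± 0.26 (adjusted p = 0.00717), ZAT1 fell by 0.84 and CML3 fell by 1.13, the only other members of the zinc finger and calmodulin-like lists that were past the test. No calmodulin and none of the 11 other rapid stress genes passed. The root marker mean was -0.37 to -0.26 on WT Cd 24 h arrays, against 0.49 to 0.60 on WT control arrays, and its part in these differences was not tested. In pooled tissue, fewer cells of a type and less RNA per cell cannot be told apart.

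Between the 2 Cd times in WT, 24 h against 30 min, ZAT7 rose by 1.04 ± 0.33 (adjusted p = 0.0323), ZAT10 by 0.99 ± 0.32 (adjusted p = 0.0303) and ZAT12 by 0.90 ± 0.11 (adjusted p = 5.73e-05), where 9.98% of all features rose and 21.3% passed. CML37 had 0.95 ± 0.35 (adjusted p = 0.0601) and ZAT11 had 0.75 ± 0.34 (adjusted p = 0.126). In the model of the 15 arrays, 8 members passed, all higher, including CML37 (adjusted p = 0.000338), ZAT11 (adjusted p = 0.00326), ZAT6 and CML38, and TCH3 and CML39 did not. No share of all features stands beside the count in that model. CML31 and CML34 fell by 1.84 and 1.61 and CAM5, CAM2 and CAM7 by 0.43, 0.42 and 0.32, whereas CML40, WRKY53 and BAP1 rose by 1.61, 1.38 and 1.03. Of the other zinc fingers 2 rose and 2 fell, AZF2 by 0.97 the most upward and ZAT1 (-0.70) downward. The root marker mean was -0.37 to -0.26 on WT Cd 24 h arrays, against 0.26 to 0.35 on WT Cd 30 min arrays, and its part was not tested. Of the 12 root markers, however, 2 rose past the test at 24 h and none fell. Leaving out any 1 array left 1 or 2 members past the test, with 1 in 5 of the 6 cases. With slide as a random block 1 member passed, and the groups lay on slides 1 and 2. GOX2 itself was higher by 3.37 on the log2 scale at 24 h than at 30 min.

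**Figure D4:**
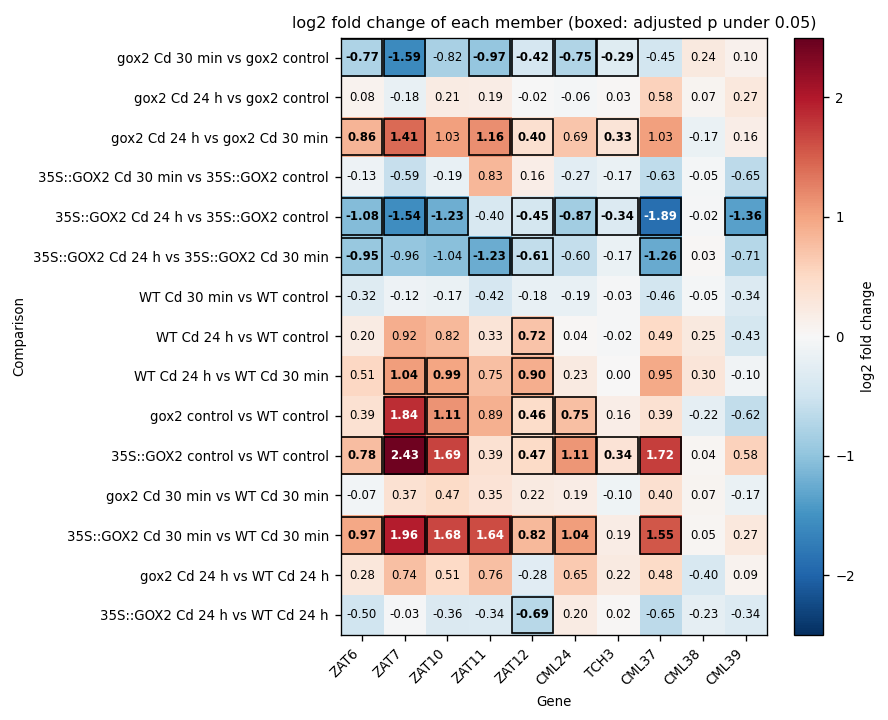
Log2 fold change of each member (x axis) in 15 comparisons (y axis), first-named group over second, in color and as numbers; boxes mark an adjusted p under 0.05 in limma. The row of 35S::GOX2 control against WT control holds 7 boxed members, up to 2.43 for ZAT7, that of 35S::GOX2 Cd 24 h against its control holds 8, down to -1.89 for CML37, and CML38 has none with all 27 arrays in the model.

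In gox2 at 30 min of Cd against gox2 control, ZAT7 fell by 1.59 ± 0.33 on the log2 scale (adjusted p = 0.00165), ZAT11 by 0.97 ± 0.34 (adjusted p = 0.0405), ZAT6 by 0.77 ± 0.26 (adjusted p = 0.0296), CML24 by 0.75 ± 0.23 (adjusted p = 0.0212), ZAT12 by 0.42 ± 0.11 (adjusted p = 0.00626) and TCH3 by 0.29 ± 0.08 (adjusted p = 0.00689). These 6 of 10 members fell and none rose, where 12.4% of all features fell and 27.7% passed. ZAT10 had -0.82 ± 0.32 (adjusted p = 0.0596). Without the arrays that stood apart, all 5 zinc fingers and CML24, TCH3 and CML37 fell, by 0.37 to 1.98, and CML38 rose by 0.41 (adjusted p = 0.0125). The zinc finger mean was -0.32 on gox2 control replicate 1, against 0.78 and 0.75 on replicates 2 and 3. Leaving replicate 1 out therefore enlarges the zinc finger falls by construction. Of the other calmodulin-like genes 12 fell and 3 rose, led by CML40 (-2.08), CML44 (-1.40) and CML41 (-1.37), and WRKY46, BAP1 and TCH4 fell by 1.63, 1.43 and 0.89. The zinc fingers ZAT17 and AZF3 fell by 0.45 and 0.35. CAMTA5 rose by 0.40. The seed marker mean was -0.59 to -0.35 on the gox2 Cd 30 min arrays, against 0.51 to 1.66 on the gox2 control arrays, and its part was not tested. GOX2 itself had a log2 fold change of -4.19 here. The control arrays lay on slide 3 and the Cd arrays on slide 1. With slide as a random block 1 member passed, and 3 passed without replicate 1 or 2 of gox2 Cd 30 min or replicate 2 or 3 of gox2 control.

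At 24 h against control in gox2 no member passed, where 0.0135% of all features passed, and none had an unadjusted p under 0.05 in limma or in the methods' t-test. Without the arrays that stood apart no member passed either. ZAT6, ZAT10, ZAT11 and TCH3 turned in sign, with -0.26, -0.30, -0.28 and -0.05 in place of 0.08, 0.21, 0.19 and 0.03. The 3 arrays labelled gox2 Cd 24 h each resembled arrays of another label, and replicate 2 was the lowest of them for 9 members and the highest for CML38. At 24 h against 30 min, ZAT7 (1.41 ± 0.33, adjusted p = 0.0186), ZAT11 (1.16 ± 0.34, adjusted p = 0.0468), ZAT6 (0.86 ± 0.26, adjusted p = 0.049), ZAT12 (0.40 ± 0.11, adjusted p = 0.0302) and TCH3 (0.33 ± 0.08, adjusted p = 0.0171) rose, 5 of 10 members against 3.14% of all features that rose and 6.7% that passed. The other TCH3 features had 0.30 (adjusted p = 0.0849) and 0.85 (adjusted p = 0.105). WRKY46, BAP1 and WRKY40 rose by 1.70, 1.30 and 0.88, and CML40, CML41 and CML16 by 2.15, 1.1 and 1.06. The root marker mean was -0.90 to 0.47 on the 24 h arrays, against 0.02 to 0.06 on the 30 min arrays. The seed marker mean was -0.23 to 2.63 at 24 h, against -0.59 to -0.35 at 30 min, and GOX2 was higher by 3.94 on the log2 scale at 24 h. The part of these was not tested. The count of 5 members rested on single arrays. It was 8 when replicate 2 at 24 h was left out, 0 when replicate 1 at 24 h or replicate 1 or 2 at 30 min was, and 1 when replicate 3 of either time was, and it was 0 with slide as a random block.

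In 35S::GOX2 at 30 min against its control no member passed in limma, where 23% of all features passed, 2 members had an unadjusted p under 0.05, and the methods' t-test gave 0 members before and after adjustment. ZAT11 had 0.83 ± 0.34 (adjusted p = 0.0857). It rose by 1.17 (adjusted p = 0.00126) once the arrays that stood apart were left out, 35S::GOX2 Cd 30 min replicate 2 among them, and was then the only member past the test. Other genes of both families passed in this comparison. ZAT18 rose by 1.45 and ZAT8 fell by 0.74, and 9 other calmodulin-like genes fell and none rose, led by CML31 (-2.61), CML34 (-1.77) and CML32 (-1.39). TCH4 fell by 0.60, CBF3 by 0.99 and CAM5 by 0.37. The root marker mean was 0.56, -0.955 and 0.52 on replicates 1, 2 and 3 at 30 min, against 0.22 to 0.28 on the control arrays. GOX2 was higher by 4.20 on the log2 scale at 30 min, the control arrays being low in GOX2. The part of either was not tested. The control lay on slide 1 and the 30 min arrays on slide 3, and slide and time cannot be told apart here.

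At 24 h in 35S::GOX2, 8 members were below the same line's control. CML37 fell by 1.89 ± 0.35 (adjusted p = 0.00037), ZAT7 by 1.54 ± 0.33 (adjusted p = 0.00115), CML39 by 1.36 ± 0.42 (adjusted p = 0.0139), ZAT10 by 1.23 ± 0.32 (adjusted p = 0.00402), ZAT6 by 1.08 ± 0.26 (adjusted p = 0.00233), CML24 by 0.87 ± 0.23 (adjusted p = 0.0052), ZAT12 by 0.45 ± 0.11 (adjusted p = 0.00232) and TCH3 by 0.34 ± 0.08 (adjusted p = 0.00148). These 8 of 10 members fell and none rose, where 20.2% of all features fell and 43.9% passed. ZAT11 had -0.40 ± 0.34 and CML38 -0.02 ± 0.15. GOX2 itself was at 9.60 to 9.79 on the control arrays, opposite to their label, and at 14.01 to 14.35 on the 24 h arrays. The count was 8 whichever array was left out, and without the arrays that stood apart it was 9, with ZAT11 added (-0.71, adjusted p = 0.0127). Of the other calmodulin-like genes 22 fell and 4 rose, with CML31 (-2.23), CML40 (-1.78) and CML3 (-1.67) the largest, and 10 of 11 rapid stress genes fell, including RRTF1 (-4.39), WRKY46 (-1.43) and ERF5 (-1.33). The cold factors CBF2, CBF3 and CBF1 fell by 1.40, 1.34 and 1.1 and CAMTA3 by 0.48. Of the other zinc fingers 3 rose and 2 fell, with ZAT8 (-1.09) and AZF1 (-0.79) lower and ZAT4 (0.69) higher. The control lay on slide 1 and the 24 h arrays on slide 3, and slide and time cannot be told apart here. The root marker mean was -1.07 to -0.23 on the 24 h arrays, against 0.22 to 0.28 on the control arrays, and the seed marker mean was -0.44 to 0.92 on the 24 h arrays, against -0.65 to -0.30 on the control arrays. Their part was not tested.

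At 24 h against 30 min in 35S::GOX2, both on slide 3, CML37 (-1.26 ± 0.35, adjusted p = 0.0482), ZAT11 (-1.23 ± 0.34, adjusted p = 0.0472), ZAT6 (-0.95 ± 0.26, adjusted p = 0.0435) and ZAT12 (-0.61 ± 0.11, adjusted p = 0.0301) fell, 4 of 10 members against 2.63% of all features that fell and 4.54% that passed. Arrays with the same replicate number deviated together in these groups (r of 0.34, 0.51 and 0.37), and with the replicate number as a block ZAT12 (adjusted p = 0.038) was the only member past the test, while ZAT6, ZAT11 and CML37 had adjusted p of 0.0503, 0.0532 and 0.0554. ZAT18, AZF1 and CML40 fell by 1.36, 0.90 and 1.93. Replicate 2 of each group correlated best with the replicate 2 of the other and had root marker means of -1.07 at 24 h and -0.955 at 30 min, the lowest of all arrays. Without these 2 arrays and gox2 control replicate 1, 9 members fell, all but CML38, with ZAT10 at -1.59 (adjusted p = 1.74e-05) and CML37 at -2.06 (adjusted p = 2.65e-05). Without replicate 1 or 3 of either group no member passed, and 9 or 7 passed without replicate 2 at 30 min or at 24 h.

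Between the lines under Cd, 35S::GOX2 exceeded WT at 30 min in all 5 zinc fingers and in CML24 and CML37. ZAT7 rose by 1.96 ± 0.33 (adjusted p = 0.000967), ZAT10 by 1.68 ± 0.32 (adjusted p = 0.00186), ZAT11 by 1.64 ± 0.34 (adjusted p = 0.00355), CML37 by 1.55 ± 0.35 (adjusted p = 0.00581), CML24 by 1.04 ± 0.23 (adjusted p = 0.00534), ZAT6 by 0.97 ± 0.26 (adjusted p = 0.0144) and ZAT12 by 0.82 ± 0.11 (adjusted p = 0.000178). These 7 of 10 members rose, where 8.11% of all features rose and 16.9% passed. The brightest TCH3 feature had 0.19 ± 0.08 (adjusted p = 0.0844), while its other features rose by 0.33 (adjusted p = 0.0379) and 0.93 (adjusted p = 0.0486). Of the other zinc fingers 5 rose and 1 fell, with ZAT18 (1.43), AZF2 (1.16) and AZF1 (1.1) highest, and of the other calmodulin-like genes 12 rose and 5 fell, led by CML40 (3.21), CML46 (2.64) and CML45 (2.31). WRKY46, BAP1 and WRKY53 rose by 1.80, 1.75 and 1.62 among 7 of 11 rapid stress genes, and CAM5 fell by 0.28. The root marker mean was 0.56, -0.955 and 0.52 on replicates 1, 2 and 3 of 35S::GOX2, against 0.26 to 0.35 on the WT arrays. GOX2 was higher by 3.58 on the log2 scale in 35S::GOX2, with the WT arrays among those low in GOX2. The part of either was not tested. The groups lay on slides 3 and 2. With slide as a fixed term no member passed, and with slide as a random block 3 passed. With the arrays that stood apart left out, 8 members rose, by 0.27 to 2.27, with the brightest TCH3 feature (adjusted p = 0.0072) added.

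In gox2 against WT at 30 min no member passed, where 7.67% of all features passed and no member had an unadjusted p under 0.05 in limma, and the methods' t-test gave 3 members before and 0 after adjustment. The arrays of both groups resembled their own labels, and in the model of those 15 arrays ZAT10 (0.47, adjusted p = 0.00196), ZAT7 (0.37, adjusted p = 0.00745) and CML24 (0.19, adjusted p = 0.0332) rose. ZAT1 and ZAT17 fell by 0.69 and 0.54, CML34, CML3 and CML2 fell by 1.14, 1.01 and 0.89, and WRKY53 rose by 1.32. The groups lay on slides 1 and 2, and slide and line cannot be told apart here. Root markers averaged 0.02 to 0.06 on gox2 arrays, against 0.26 to 0.35 on WT arrays, and their part was not tested. Of the 12 root markers, however, 1 was higher in gox2 past the test and none was lower.

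At 24 h no member rose past the test in either line against WT. The WT arrays lay on slide 1 and those of the other lines on slides 2 and 3, so slide and line cannot be told apart here. In gox2 no member passed, where 2.14% of all features passed, 6 members had an unadjusted p under 0.05 in limma and the methods' t-test gave 1 before and 0 after adjustment. Without gox2 Cd 24 h replicate 2 the count was 4, and without the arrays that stood apart ZAT10, ZAT11, CML24 and TCH3 rose by 0.22 to 0.76 and CML38 fell by 0.40. The root marker mean was -0.90 to 0.47 on the gox2 arrays, against -0.37 to -0.26 on the WT arrays, and its part was not tested. In 35S::GOX2 ZAT12 fell by 0.69 ± 0.11 (adjusted p = 0.000502) and no other member passed, where 7.06% of all features fell and 14.6% passed. Without the arrays that stood apart ZAT6, ZAT10, ZAT11, CML37 and CML38 fell as well, by 0.35 to 1.15, and without 35S::GOX2 Cd 24 h replicate 2 alone 2 members passed. Of the 12 root markers 6 fell in 35S::GOX2 and none rose, with a mean of -1.07 to -0.23 on these arrays, against -0.37 to -0.26 on the WT arrays, and their part was not tested.

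The difference of the Cd response between each line and WT was tested as an interaction term. At 24 h the response of 35S::GOX2 was below that of WT for 7 of 10 members, where 12.7% of all features had a lower response and 27.5% passed. It differed by -2.46 ± 0.47 for ZAT7, -2.37 ± 0.50 for CML37, -2.05 ± 0.45 for ZAT10 and -1.17 ± 0.15 for ZAT12, with adjusted p from 0.000197 to 0.0032. The log2 fold change of ZAT10 against the same line's control was -1.23 in 35S::GOX2 and 0.82 in WT. GOX2 itself differed by 4.59 on the log2 scale in this test. It was at 9.60 to 9.79 on the 35S::GOX2 control arrays, opposite to their label, and the part of this control in the difference was not tested. Both WT groups and the 35S::GOX2 control lay on slide 1. The 35S::GOX2 Cd 24 h arrays lay on slide 3, so slide and this difference in response cannot be told apart. At 30 min the response of gox2 was below that of WT for ZAT7 (-1.47 ± 0.47, adjusted p = 0.027) and for no other member, where 13% of all features had a lower response and 27% passed. That call was lost without WT control replicate 2, WT Cd 30 min replicate 1, gox2 Cd 30 min replicate 1 or 2 or gox2 control replicate 2 or 3, each of which left 0 members, whereas 4 passed without gox2 control replicate 1 and 7 without all arrays that stood apart. With slide as a random block it was lost too (adjusted p = 0.278). For 35S::GOX2 at 30 min and gox2 at 24 h no member passed, where 29.7% and 0.0162% of all features did, and 2 members had an unadjusted p under 0.05 in each. For 35S::GOX2 at 30 min 1 member passed without WT control replicate 3, WT Cd 30 min replicate 2 or 35S::GOX2 Cd 30 min replicate 2, and for gox2 at 24 h 1 passed without replicate 1 of gox2 Cd 24 h or of gox2 control. The methods' t-test was not run on these differences.

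With all 27 arrays in the model, CML38 passed in none of the 15 comparisons. Its smallest adjusted p was 0.141, in gox2 against WT at 24 h (-0.40 ± 0.15). Without the arrays that stood apart it passed in 5, with adjusted p from 0.0125 to 0.0402, and in the model of 15 arrays in WT at 24 h against control and against 30 min. CML39 passed in 1 comparison, TCH3, ZAT11 and CML37 in 4, ZAT10 and CML24 in 5, ZAT6 in 6 and ZAT7 in 7. The second CML38 feature lay between -0.28 and 0.30 in all 15 comparisons and passed in none.

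The genes outside the set whose arrays followed the members most closely were found by Pearson's r over the 27 arrays among 32617 other loci. For the mean of the 5 zinc fingers they were CML40 (0.98), the thioredoxin gene TH9 (0.97), the heat shock factor gene HSF A4A (0.97), AT1G31130 and AT1G32920. For the mean of the 5 calmodulin-like genes they were XBAT34 (0.97), AT5G13200, the syntaxin gene SYP121 (0.96), OPCL1, an enzyme of jasmonate synthesis (0.96), and CRK14. Single members were most like MYB15 (ZAT12, 0.90), MBF1C, a heat-induced coactivator (CML24, 0.98), EDS5, which exports salicylate precursors from plastids (CML39, 0.92), and bZIP2 (CML38, 0.88). Physical neighbours were not picked for a high r, so their values cannot be set against those of the loci above. ZAT8, 1 protein-coding gene away from ZAT7, had an r of 0.73 with it. CAM1, next to CML24, had an r of 0.52 with it, CML10, next to TCH3, had 0.37, and CAM2, 1 protein-coding gene away from TCH3, had 0.57.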

How the data were processed

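RNA of 27 samples (3 lines, 3 treatments, n = 3) was measured on single-color NimbleGen arrays. Each deposited value is a linear RMA intensity, for which the authors' laboratory combined 1 to 4 probe pairs per feature after background correction and normalization; background or detection values were not used here. The genome build is not given in the sources used here, and the submitters' processing notes name limma. Before testing, the deposited intensities were taken to log2 and made equal in distribution across arrays (quantile), since array medians spanned 0.15. A model with 9 group means was fitted to 37118 features with limma 3.58.1 in R 4.3.3, labels being read with jsonlite 2.0.0, and Benjamini-Hochberg adjusted p under 0.05 was the threshold in 15 comparisons and 4 differences of responses. The member log2 fold changes, their SE and adjusted p come from that model, which was tested on simulated data. Members, gene lists and tests were chosen with earlier results of these data known. Other genes named are those with the largest changes in each list (up to 3, arrays not overlapping) and the loci most correlated with the members. Symbols came from RefSeq, which matched 31993 of 32627 loci and was used for gene order only. Alternatives changed the normalization, table, filter (dimmest 25%), feature choice, block, samples, threshold (log2 fold change of 1), test and replicates. Whether same-numbered samples deviated together was checked, and they did in 1 of 15 comparisons, 35S::GOX2 24 h against 30 min.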

Additional observations from a re-analysis of the deposited data

Results flagged for a closer look

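The Cd response of a line differed from that of WT, by limma's test of the difference, for 8 member values. For gox2 at 30 min it was ZAT7, with a log2 difference of -1.47. For 35S::GOX2 at 24 h the differences were -2.46 for ZAT7, -2.37 for CML37, -2.05 for ZAT10, -1.28 for ZAT6, -1.17 for ZAT12, -0.91 for CML24 and -0.32 for TCH3. These 7 share their control arrays and those of 35S::GOX2 Cd 24 h, of which replicate 2 stood apart, and without the arrays that stood apart they lay between -2.87 and -0.31. Slide and response cannot be told apart for these 7, since among their groups only 35S::GOX2 Cd 24 h lay on slide 3. GOX2 itself differed by 4.59 on the log2 scale in this test and was low on the 35S::GOX2 control arrays, opposite to their label.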

How the results depend on the processing

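For the 120 of 190 member fold changes that passed as reported or under an alternative, the alternatives gave 2202 values, of which 1834 kept direction and side of the threshold, 220 no longer passed, 146 newly passed and 2 changed sign. Both were CML39 in the difference of the 30 min response of 35S::GOX2 and of WT, -0.31 as reported, from -0.68 to 0.29 with 1 array left out at a time (highest when the second 35S::GOX2 array at 30 min was dropped) and 0.29 without the arrays that stood apart. The other 70 never passed, and 108 of their 1308 values changed sign, in 38 fold changes that were at most 0.27 in size as reported. Counts of members past the threshold moved by over 1.5 times as follows, and the cause was not tested.

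With a log2 fold change of at least 1 also required, by construction fewer passed: 1 in gox2 Cd 30 min against control, 2 in gox2 24 h against 30 min, 5 in 35S::GOX2 24 h against control, 2 in 35S::GOX2 24 h against 30 min, 0 in WT 24 h against control, 1 in WT 24 h against 30 min, 2 in gox2 against WT control, 4 in 35S::GOX2 against WT control and 0 in 35S::GOX2 against WT at 24 h. With only the arrays compared, the counts were 2 for gox2 30 min against control, 0 for 24 h against 30 min in gox2 and in 35S::GOX2, 4 for WT 24 h against control, 8 for WT 24 h against 30 min, 2 for gox2 against WT control, 2 for gox2 and 4 for 35S::GOX2 against WT at 30 min, and 1 for the difference of 35S::GOX2 and WT responses at 30 min. The last was also 1 with values as deposited. With slide as a random block they were 1 for gox2 30 min against control, 0 for gox2 24 h against 30 min, 1 for WT 24 h against 30 min, 1 for gox2 against WT control, 3 for 35S::GOX2 against WT at 30 min and 0 for the difference of gox2 and WT responses at 30 min. With slide as a fixed term, estimable for 7 of the 19 tests, they were 0 for 35S::GOX2 against WT at 30 min, 1 for the 30 min response difference of 35S::GOX2 and 2 for the 24 h one of gox2.

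The methods' t-test with adjustment gave 0 for gox2 30 min against control, for 24 h against 30 min in gox2 and in 35S::GOX2, for gox2 against WT control and for 35S::GOX2 against WT at 30 min, 3 for WT 24 h against control and 6 for WT 24 h against 30 min. Unadjusted it gave 3 for gox2 30 min against control, 1 for 35S::GOX2 24 h against 30 min, 3 for WT 30 min and 6 for WT 24 h against control, 8 for WT 24 h against 30 min, 2 for gox2 against WT control, 3 for gox2 against WT at 30 min and 1 at 24 h. It was not run on the response differences.

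The alternatives chosen after seeing the data concerned which arrays entered the model. Their counts have no share of all features beside them, so a higher count is not by itself a result about the members. Choosing arrays by their likeness to their label also narrows the spread by construction. With only the 5 groups whose arrays resembled their own label, the counts were 3 for WT 30 min and 5 for WT 24 h against control, 8 for WT 24 h against 30 min and 3 for gox2 against WT at 30 min. Without the arrays that stood apart they were 8 for gox2 24 h against 30 min, 1 for 35S::GOX2 30 min against control, 9 for 35S::GOX2 24 h against 30 min, 3 for WT 24 h against control, 7 for WT 24 h against 30 min, 9 for gox2 against WT control, 1 for gox2 against WT at 30 min, 5 for gox2 and 6 for 35S::GOX2 against WT at 24 h, and 7 (gox2, 30 min), 2 (35S::GOX2, 30 min) and 3 (gox2, 24 h) for the response differences.

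With 1 array left out at a time, counts ranged from 3 to 8 for gox2 30 min against control, 0 to 8 for gox2 24 h against 30 min, 0 to 1 for 35S::GOX2 30 min against control, 0 to 9 for 35S::GOX2 24 h against 30 min, 1 to 2 for WT 24 h against 30 min, 2 to 7 for gox2 against WT control, 0 to 4 for gox2 and 1 to 2 for 35S::GOX2 against WT at 24 h, and 0 to 4 (gox2, 30 min), 0 to 1 (35S::GOX2, 30 min) and 0 to 1 (gox2, 24 h) for the response differences.

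Samples that share a replicate number deviated together, with r over 0.1 for all pairs, in 35S::GOX2 24 h against 30 min and in no other of the 15 comparisons (r from -0.53 to 0.51). The replicate block gave 3 members for gox2 24 h against 30 min and 1 for 35S::GOX2 24 h against 30 min, and changed no other count by over 1.5 times. The files hold no background values, so low signals such as those of CML39 and ZAT11 cannot be set against a detection limit.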
